A study of Sus scrofa with 8 samples.

Results

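The abundant LOC-named long noncoding RNAs (lncRNAs) are 153 of the 31014 genes counted in the hearts of miniature pigs. LOC names are the placeholders that RefSeq gives to loci without a gene symbol. A gene was taken when the deposited table called it an lncRNA, its name began with LOC, and its mean level over all 8 libraries was at least 5 CPM (a gene's counts over the column total, scaled to 1e6). Of 5541 LOC-named lncRNAs, 5388 stayed under that level, and 1765 of these had no read in any library. The lncRNAs were thus chosen by their measured mean level over both groups, so the levels below are a description, while the treatment difference was not itself part of the rule. Just inside the threshold were LOC102160517 at 5.03 CPM, LOC110256034 at 5.04 CPM and LOC102165933 at 5.07 CPM. Just outside it were LOC110260918 at 4.96 CPM, LOC110257139 at 4.94 CPM and LOC100739791 at 4.88 CPM.

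Messenger RNA of heart tissue was sequenced in wild-type miniature pigs (Sus scrofa), 5 samples from animals given doxorubicin and 3 from animals given vehicle. Doxorubicin, an anthracycline given to patients with cancer, can injure heart muscle, and the series concerns the nuclear receptor ERRα in that setting. The dose, schedule, age and sex of the animals, and whether each sample came from its own animal, are not stated in the sources at hand. The p-values therefore measure only the spread between these samples, which may be technical.

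Long noncoding RNAs are long transcripts that are not known to encode a protein. Many start beside or run antisense to protein-coding genes, some host microRNAs in their introns or exons, and some act in the nucleus on chromatin or splicing. The sequence of many is poorly conserved between mammals. No function is known from the sources used here for nearly all of these lncRNAs: 149 of the 153 are described as uncharacterized. The other 4 carry descriptions of other kinds: LOC100514147 (small regulatory polypeptide of amino acid response), LOC106504299 (a serpin), LOC106508676 (a zinc finger protein) and LOC100627949 (a transposon polyprotein).

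Library totals were 17442566 to 18267178 counts after doxorubicin and 16105242 to 17195538 counts with vehicle, of which the lncRNAs held 54745 to 69760 and 56327 to 64930 counts. Doxorubicin 5 stood apart from its group, with a mean correlation of 0.912 with the other doxorubicin libraries, against 0.941 to 0.956 for the rest of them and 0.974 to 0.977 for vehicle libraries. Summed over 8 fibroblast markers, the level was 2472 to 31410 CPM after doxorubicin, highest in doxorubicin 5, and 1238 to 1449 CPM with vehicle, and 5 of the 8 were higher and 1 lower by the test. Summed cardiomyocyte markers, 8 of the 9 listed, lay at 30160 to 56310 CPM after doxorubicin, lowest in doxorubicin 5, and at 55760 to 59150 CPM with vehicle, with 0 higher and 2 lower. Macrophage markers summed to 167 to 448 CPM after doxorubicin and 109 to 148 CPM with vehicle, with 4 of 6 higher. Adipocyte markers, 3 of 5 of them tested, summed to 38.0 to 143 CPM after doxorubicin and 259 to 414 CPM with vehicle, with 2 lower. Lists for T and NK cells had 5 of 6 markers higher, smooth muscle 2 higher and 1 lower, endothelium 1 higher, and B cells, Schwann cells, mesothelium, red cells and neutrophils none called. None of the lists had a detected marker at 0 in all libraries, and the part of cell makeup in the values below was not tested. In bulk tissue, fewer cells of a type and less RNA per cell cannot be told apart.

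The 153 loci matched RefSeq by identifier, all with the same start and end on Sscrofa11.1, so coordinates are on that assembly. They lay on 19 chromosomes and 2 unplaced scaffolds, most often on chromosome 6 (19 loci), chromosome 13 (16), chromosome 4 (13), chromosome 1 (12) and chromosome 16 (11), and 75 were on the plus strand. Transcript lengths in the deposited table ran from 453 to 27061 bases with a median of 4179, close to the median of 3789.5 bases for the 10426 protein-coding genes over the same level. Most were near or within protein-coding genes. The gene span of 58 overlapped a protein-coding gene on the opposite strand and that of 5 one on the same strand, 40 more lay within 5 kb of a protein-coding gene, and 49 lay farther away. The scaffold of 1 more held no protein-coding gene. A head-to-head start within 1000 bases of a protein-coding gene, without overlap, was found for 21 loci, and 24 overlapped another noncoding gene. Loci whose start overlaps that of an opposite-strand gene were not counted as head to head, such as LOC100621475 with CHRM2 (starts 543 bases apart). Whether reads were counted by strand is not given in the labels or the table, so for the overlapping loci reads of the lncRNA and of its partner cannot be told apart.

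Levels were uneven. The median over the 153 was 9.84 CPM, 75 reached 10 CPM, 10 reached 50 CPM and 4 reached 100 CPM. LOC100513133 (chromosome 2, 6803590 to 6811708, minus strand) stood at 748 CPM and alone held 21.6% of all counts of the 153, and the 10 most abundant held 46.8%. It was the 129th most abundant gene of the whole table, and its nearest protein-coding gene is FRMD8. Next came LOC110257452 at 226 CPM, LOC102163816 at 144 CPM and LOC100624113 at 117 CPM. Per kilobase of transcript the order changed: LOC100512560 led with 123 CPM per kb, followed by LOC100521518 with 106, LOC100624113 with 95.4 and LOC100513133 with 94.3 CPM per kb.

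Together the 153 took 0.333% ± 0.0388 of all counts after doxorubicin and 0.364% ± 0.0299 with vehicle (SD, n = 5 and n = 3). The ranges of 0.301% to 0.400% after doxorubicin and 0.344% to 0.398% with vehicle overlapped. Counts of genes in mitochondrial DNA took 12.8% ± 2.83 of the total after doxorubicin and 25.3% ± 1.99 with vehicle. Of the counts outside mitochondrial DNA, the lncRNAs took 0.383% ± 0.0559 after doxorubicin and 0.488% ± 0.0530 with vehicle, again overlapping (0.344% to 0.480% and 0.457% to 0.549%). Every lncRNA had reads in all 8 libraries.

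More of these lncRNAs were lower than higher after doxorubicin. By edgeR's quasi-likelihood test, 35 fell, 7 rose and 111 did not pass an adjusted p of 0.05. That is 22.9% lower against 11.3% of all 14938 genes tested, and 4.58% higher against 13.6% of all genes tested. In either direction the share was 27.5%, near the 24.9% of all genes tested. The median log2 fold change was −0.33, against 0.02 for all genes tested, and 100 of 153 (65.4%) had a negative value, against 48.8%. All 153 passed the filter on low counts. An unadjusted p under 0.05 was found for 63 of them (41.2%), a share near the 40.8% of all genes tested.

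Larger changes were also mostly downward. At least a 2-fold change was called for 24 of the 153 as lower, against a background of 3.32% of all genes tested, and for 2 as higher, against 9.3%. Of these, 8 of the 24 and 1 of the 2 reached 5 CPM on average through 1 group alone, as set out below. The doxorubicin libraries all lay below the vehicle libraries for 48 of the 153 (background 17.8%) and all above them for 9 (background 17.1%). Protein-coding genes over the same 5 CPM divided evenly, with 1500 higher and 1444 lower of 10426 and a median log2 fold change of −0.03. Among the 6613 of these between 5 and 38.6 CPM, the range that holds 90% of the lncRNAs, 16.2% were higher and 11.4% lower, with a median of 0.03. LOC-named lncRNAs under 5 CPM that could be tested, 675 in number, had 30 higher and 38 lower calls and a median of −0.15. The 47 lncRNA genes over 5 CPM with a gene symbol instead of a LOC name had 6 higher and 7 lower calls and a median of −0.04. No test of the list as a whole was made.

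**Figure D1:**
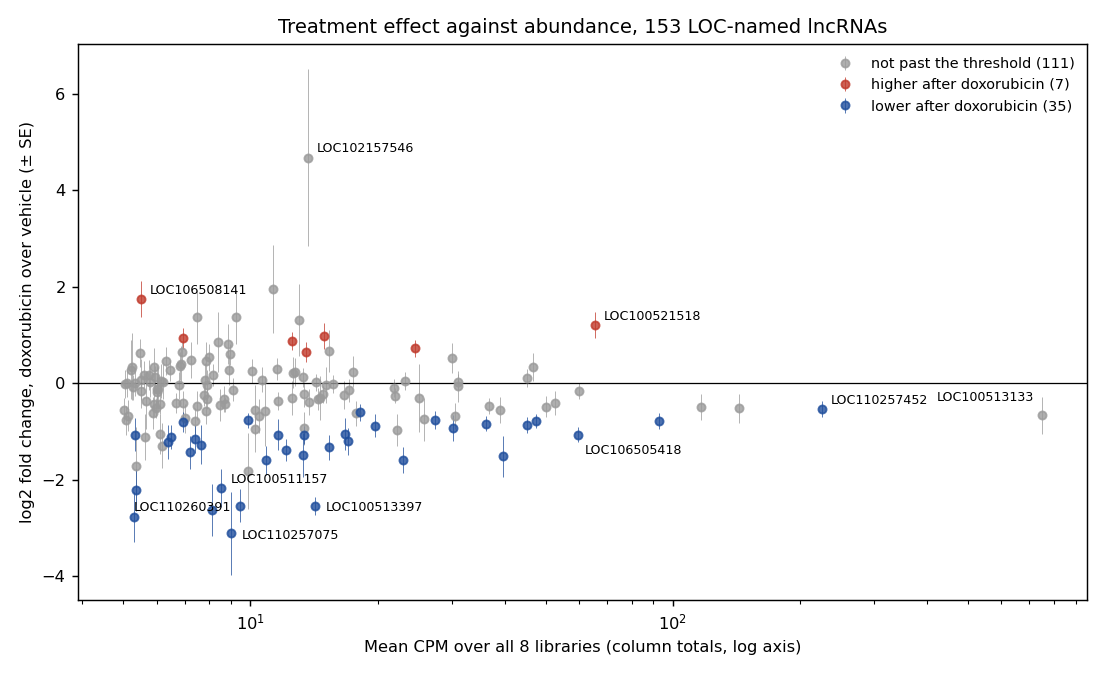
Log2 fold change of each of the 153 lncRNAs, doxorubicin over vehicle with its standard error (y axis), against its mean CPM over all 8 libraries (x axis, log scale). The 35 lower calls spread over the whole range of abundance up to LOC110257452 at 226 CPM, while the 7 higher calls reach 1.74.

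By abundance, of 75 lncRNAs at 10 CPM or more, 21 fell and 5 rose, with a median log2 fold change of −0.38. Of 78 lncRNAs between 5 and 10 CPM, 14 fell and 2 rose, with a median of −0.17. The rule averages over both groups, and 111 of the lncRNAs reached 5 CPM in each group's own mean. Of these 111, 27 fell and 5 rose, 16 and 1 of them by at least 2-fold, and the median log2 fold change was −0.40. Protein-coding genes with both group means over 5 CPM, 9510 in number, had 14.9% lower and 11.2% higher calls and a median of −0.09. Changes of at least 2-fold made up 2.99% of them as lower and 5.25% as higher. A further 27 lncRNAs reached 5 CPM after doxorubicin only, 2 of them called higher, and 15 with vehicle only, 8 of them called lower. Both higher calls and 8 of the 14 lower calls between 5 and 10 CPM were of this kind, which leaves 6 lower and 0 higher calls among 38 lncRNAs of that range with both group means over 5 CPM. For those 27 and 15 the values that chose them also enter the fold change, so their values and calls are given as a description and support no direction of the list. Among those named below, LOC106508141, LOC100627949, LOC102157546 and LOC102162605 reached it after doxorubicin only. Those that reached it with vehicle only are LOC110260391, LOC100511157, LOC110257178, LOC110257075, LOC106504881, LOC102160517, LOC110259691 and LOC110261182.

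The sign of the lncRNA median depended on how libraries were scaled. With library size alone as the scale, the median of all genes tested moved up by 0.36 and reached 0.38, and that of the lncRNAs stood at 0.03. Relative to all genes tested, the lncRNA median was −0.35 with TMM scaling and −0.35 with library size only, and over the other alternatives it ran from −0.54 (no filter on low counts) to −0.28 (limma voom). With library size only, 18 of the lncRNAs were lower and 13 higher. Without doxorubicin 5, the count was 42 lower and 8 higher. Without vehicle 1 it was 14 lower and 0 higher, without vehicle 3 also 14 lower and 0 higher, and without vehicle 2 it was 18 lower and 6 higher. Calls over all genes were also fewer without a vehicle library.

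LOC100513397 had the smallest p of the 153 (chromosome 2, 68654429 to 68657910, plus strand). It was at 6.82, 4.60, 4.11, 6.48 and 5.75 CPM in doxorubicin 1 to 5, against 31.6, 31.4 and 34.3 CPM in vehicle 1 to 3, on the TMM scale (library sizes adjusted for composition by the trimmed mean of M values) used for all per-library values. Every doxorubicin library lay far below every vehicle library, and the spread within each group was small. The level was 5.84-fold lower after doxorubicin (log2 fold change −2.55, SE 0.19, adjusted p = 0.000663). It passed whichever library was left out, with a largest adjusted p of 0.0120. The nearest protein-coding gene, LOC100738906, which RefSeq describes as a zinc finger protein, lies 1634 bases away on the opposite strand. That gene was at 8.57 ± 4.38 CPM after doxorubicin and 18.2 ± 3.79 CPM with vehicle, and its log2 fold change of −1.09 (SE 0.43) had an adjusted p of 0.0905.

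**Figure D2:**
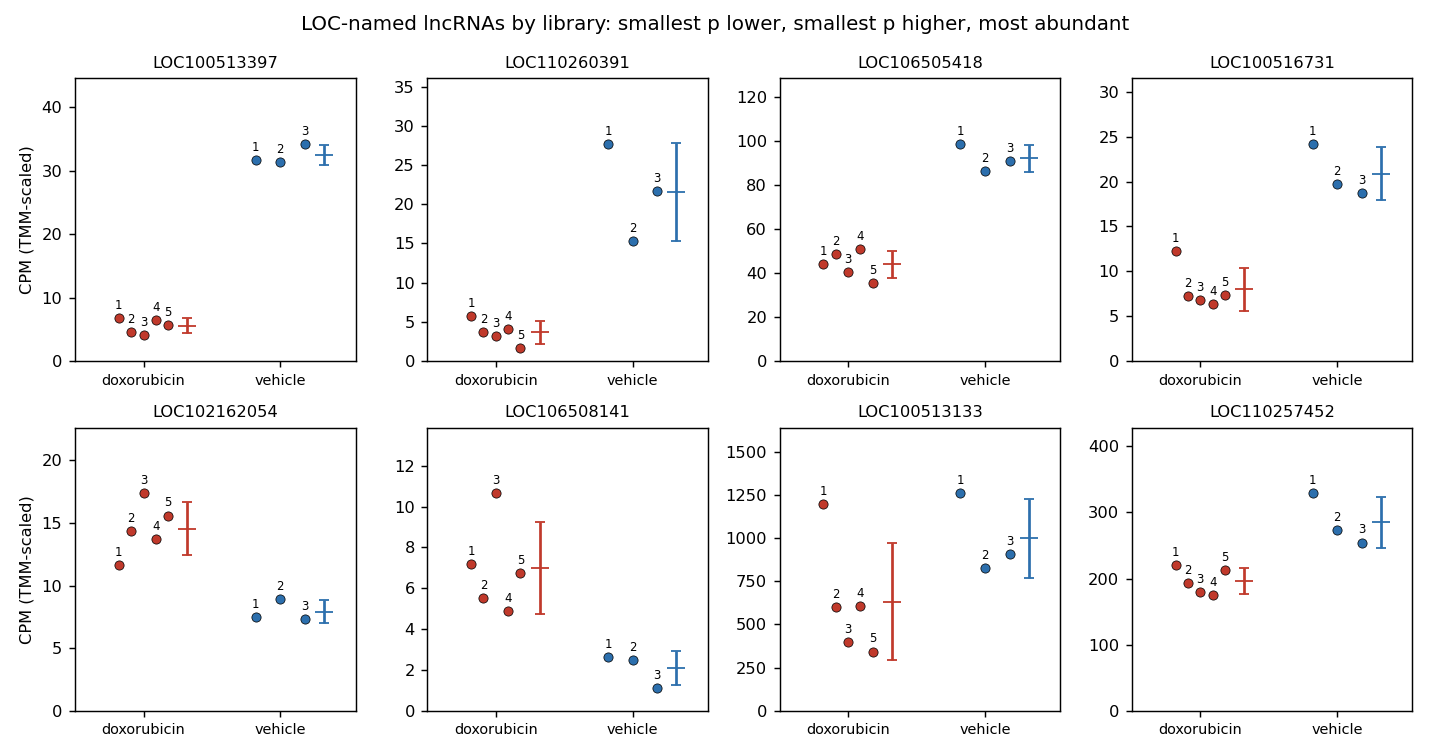
CPM (TMM-scaled) in each library for the 4 lncRNAs with the smallest p among lower calls, the 2 with the smallest p among higher calls and the 2 most abundant; numbers are library numbers, and bars show the mean ± SD (n = 5 doxorubicin, n = 3 vehicle). LOC100513397 lies between 4.11 and 6.82 CPM after doxorubicin and between 31.4 and 34.3 CPM with vehicle, while LOC100513133 overlaps because doxorubicin 1 reached 1198 CPM.

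LOC110260391 (chromosome 4, 128701723 to 128723221, minus strand) had a fold change of the same size, and reached 5 CPM with vehicle only. Its level was 5.78, 3.74, 3.17, 4.05 and 1.70 CPM after doxorubicin, against 27.7, 15.3 and 21.7 CPM with vehicle (log2 fold change −2.55, SE 0.34, adjusted p = 0.00525). It overlaps LOC110260390 by 4878 bases on the opposite strand, and that lncRNA fell as well. LOC110260390 had 13.8, 14.5, 6.54, 16.8 and 8.40 CPM after doxorubicin and 29.1, 27.0 and 27.1 CPM with vehicle (log2 fold change −1.21, SE 0.28, adjusted p = 0.0167, and up to 0.0717 without vehicle 1 or vehicle 3). Groups did not overlap for either. Reads could have been assigned to either of this pair where they overlap. The nearest protein-coding gene, LMO4, a cofactor of LIM-domain transcription factors, lies 170892 bases from LOC110260391 and fell by 0.89 on the log2 scale (SE 0.26, adjusted p = 0.0336).

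LOC106505418 (chromosome 13, 138096994 to 138109732, minus strand) was the 8th most abundant of the 153. It was at 43.9, 48.7, 40.4, 50.7 and 35.7 CPM after doxorubicin and at 98.7, 86.4 and 90.9 CPM with vehicle, so the groups were well apart. Its log2 fold change was −1.07 (SE 0.15, adjusted p = 0.00525). It overlaps 3837 bases of KPNA1, an importin alpha that carries proteins into the nucleus, on the opposite strand. KPNA1 fell too, by 0.76 on the log2 scale (SE 0.23, adjusted p = 0.0385).

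LOC100516731 (chromosome 4, 45793437 to 45807328, plus strand) starts head to head with OTUD6B, a deubiquitinase, with 167 bases between them. It had 12.2, 7.28, 6.82, 6.38 and 7.35 CPM after doxorubicin and 24.2, 19.8 and 18.7 CPM with vehicle. Doxorubicin 1 was the highest of its group and still below all vehicle libraries, and the log2 fold change was −1.38 (SE 0.23, adjusted p = 0.00731). OTUD6B showed a log2 change of −0.39 (SE 0.19, adjusted p = 0.156).

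LOC106510270 (chromosome 5, 9815467 to 9824957, plus strand) lies wholly within the span of PICK1, which encodes a PDZ-domain protein that binds protein kinase C, on the opposite strand. Its level was 18.8, 11.8, 8.41, 19.7 and 11 CPM after doxorubicin, against 41.3, 46.7 and 37.9 CPM with vehicle. All doxorubicin libraries lay below all vehicle libraries, and the log2 fold change was −1.59 (SE 0.27, adjusted p = 0.00756). PICK1 itself was at 21.0 ± 1.40 CPM after doxorubicin and 19.9 ± 4.08 CPM with vehicle (log2 fold change 0.08, SE 0.16, adjusted p = 0.757).

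LOC100621475 (chromosome 18, 12599771 to 12601402, plus strand) overlaps the start of CHRM2, the muscarinic receptor through which the vagus slows the heart, by 544 bases on the opposite strand. It had 7.48, 12.1, 9.67, 10.2 and 9.75 CPM after doxorubicin and 21.3, 24.0 and 17.1 CPM with vehicle (log2 fold change −1.08, SE 0.19, adjusted p = 0.00794). CHRM2 fell to 99.9 ± 29.0 CPM after doxorubicin, against 183 ± 22.5 CPM with vehicle (log2 fold change −0.87, SE 0.25, adjusted p = 0.0340).

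LOC100511157 (chromosome 13, 93051936 to 93053724, plus strand) lies 54234 bases from P2RY1, a receptor for ADP, on the same strand. Its level was 4.26, 4.85, 1.54, 6.90 and 2.50 CPM after doxorubicin, against 20.4, 17.8 and 16.3 CPM with vehicle (log2 fold change −2.18, SE 0.39, adjusted p = 0.00845). P2RY1 fell to 30.8 ± 8.01 CPM after doxorubicin, against 105 ± 16.4 CPM with vehicle (log2 fold change −1.76, SE 0.22, adjusted p = 0.00446). LOC110257178 (chromosome 15, 11604336 to 11612343, minus strand) had 4.58, 1.11, 0.701, 1.76 and 1.05 CPM after doxorubicin and 11.7, 12.7 and 13.5 CPM with vehicle (log2 fold change −2.78, SE 0.52, adjusted p = 0.00882). Its nearest protein-coding gene, LRP1B, a large receptor of the LDL receptor family, lies 104367 bases away and showed a log2 change of −2.91 (SE 0.61, adjusted p = 0.0123) at a low level, 0.431 ± 0.308 CPM after doxorubicin and 3.30 ± 1.13 CPM with vehicle.

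Smaller but tight decreases were seen for 3 of the more abundant lncRNAs. LOC100519283 (chromosome 18, 32644445 to 32646659) had 44.4, 32.5, 42.4, 34.6 and 37.1 CPM after doxorubicin and 64.1, 68.8 and 64.8 CPM with vehicle. LOC110261417 (chromosome 6, 150828179 to 150834152), which overlaps the gene of the transcription factor NFIA by 151 bases, had 38.1, 38.0, 31.1, 41.6 and 28.6 CPM after doxorubicin and 67.0, 56.5 and 71.8 CPM with vehicle. LOC102165834 (chromosome 16, 4972383 to 4987555), inside the span of the ubiquitin ligase gene FBXL7, had 29.2, 36.3, 25.1, 28.5 and 24.6 CPM after doxorubicin and 56.9, 49.9 and 47.6 CPM with vehicle. Their log2 fold changes were −0.79, −0.87 and −0.84, with adjusted p of 0.00852, 0.00885 and 0.00950. The call of LOC110261417 was lost without vehicle 3 (adjusted p = 0.0541), that of LOC102165834 without vehicle 1 (adjusted p = 0.0538) and that of LOC100519283 with library size only (adjusted p = 0.0555). NFIA had −0.53 (adjusted p = 0.230) and FBXL7 −0.29 (adjusted p = 0.417). LOC110256997 (chromosome 15, 65823164 to 65859107) fell by 1.60 on the log2 scale (SE 0.30, adjusted p = 0.00890), and DAPL1, 2714 bases away on the same strand, by 1.40 (SE 0.23, adjusted p = 0.00708).

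The other lower lncRNAs had log2 fold changes of −3.11 to −0.54. Among them LOC100512560 and LOC110257452 were named for their abundance and LOC110257075 for its wide range. For all 35 lower lncRNAs the doxorubicin libraries lay wholly below the vehicle libraries. The same held for 1647 of the 1681 lower calls over all genes tested, so it is common to such calls. Vehicle means of the 35 ran from 8.22 to 285 CPM. Of the 35, 11 passed whichever single library was left out, and 18 passed with library size only. The group with lower calls had a median level of 13.3 CPM and a median length of 3485 bases, and the lncRNAs without a call 8.69 CPM and 4351 bases.

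**Figure D3:**
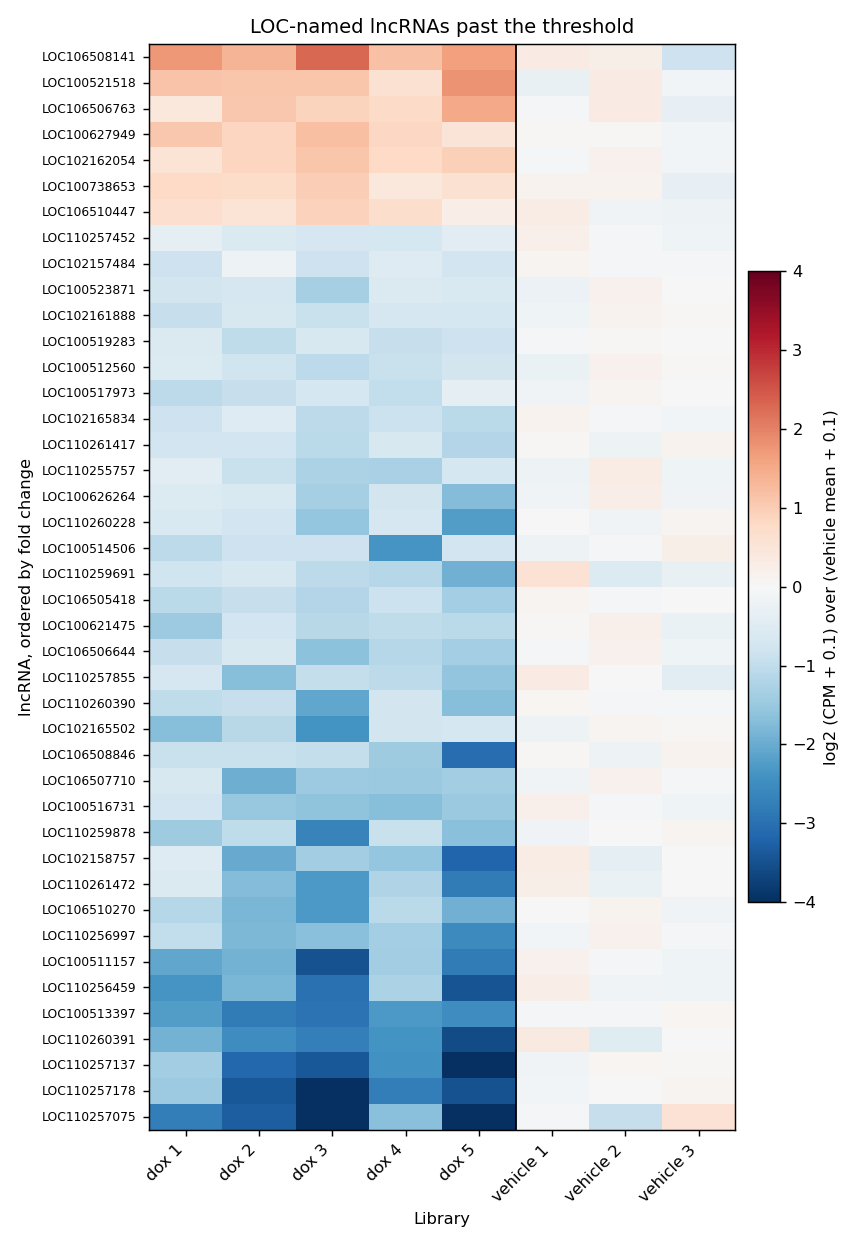
The 42 lncRNAs past the threshold (rows, ordered by fold change) in each library (columns; dox stands for doxorubicin), coloured by the log2 ratio of CPM + 0.1 to the vehicle mean + 0.1 and clipped at 4 either way. The 35 lower lncRNAs are below the vehicle mean in all 5 doxorubicin libraries, and the values at the lower end of the scale are in doxorubicin 3 and doxorubicin 5.

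The 7 higher lncRNAs had log2 fold changes of 0.64 to 1.74. LOC102162054 (chromosome 1, 269575035 to 269607453, plus strand) had 11.7, 14.3, 17.4, 13.8 and 15.6 CPM after doxorubicin and 7.5, 8.95 and 7.32 CPM with vehicle (log2 fold change 0.88, SE 0.18, adjusted p = 0.0124). LOC106508141 (chromosome 15, 140121864 to 140131409, minus strand) reached 5 CPM through the doxorubicin libraries alone, so its place in the list and its fold change rest on the same values. It had 7.20, 5.51, 10.7, 4.88 and 6.75 CPM after doxorubicin and 2.64, 2.50 and 1.14 CPM with vehicle (log2 fold change 1.74, SE 0.37, adjusted p = 0.0129). It lies within FARP2, a guanine nucleotide exchange factor gene, on the opposite strand, and FARP2 showed a log2 change of 0.39 (SE 0.37, adjusted p = 0.464).

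LOC100521518 (chromosome 13, 31153614 to 31156339, plus strand) was the most abundant lncRNA that rose. Its level was 75.6, 73.9, 73.9, 52.7 and 120 CPM after doxorubicin, against 28.1, 43.2 and 31.8 CPM with vehicle, and the lowest doxorubicin library was above the highest vehicle library. The log2 fold change was 1.21 (SE 0.27, adjusted p = 0.0145). It starts head to head with CCDC51, 14 bases away. CCDC51 was at 9.19 ± 1.77 CPM after doxorubicin and 9.37 ± 2.31 CPM with vehicle (log2 fold change −0.03, SE 0.24, adjusted p = 0.939), a value whose sign turned in 3 of the alternatives.

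The remaining higher lncRNAs were nearer to the threshold. The log2 fold change was 0.93 for LOC100627949 (chromosome 17, 41464070 to 41476914; adjusted p = 0.0171), 0.72 for LOC100738653 (chromosome 11, 432714 to 443781; adjusted p = 0.0214), 0.98 for LOC106506763 (chromosome 18, 13589027 to 13666069; adjusted p = 0.0273) and 0.64 for LOC106510447 (chromosome 6, 2474892 to 2484142; adjusted p = 0.0432). LOC106510447 had 11.8 to 18.4 CPM after doxorubicin and 8.46 to 12 CPM with vehicle, and it was the only called lncRNA whose groups overlapped. LOC106506763 has the longest transcript of the 153 (27061 bases) and overlaps 47915 bases of SLC13A4, which was too low to be tested. None of the 7 passed when vehicle 1 or vehicle 3 was left out, and all 7 passed with library size only. The call of LOC106506763 was also lost without doxorubicin 2. That of LOC106510447 was kept in 1 of the 8 fits without a library, the one without doxorubicin 5, and was lost with no filter on low counts (adjusted p of up to 0.162 without a library). LOC100738653 lies 490 bases from PARP4 on the same strand, and PARP4 was at 39.7 ± 12.7 CPM after doxorubicin and 38.2 ± 10.9 CPM with vehicle. FOXL1, a forkhead transcription factor gene 56606 bases from LOC106510447, showed a log2 change of 1.27 (SE 0.58, adjusted p = 0.130).

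Of the 10 most abundant lncRNAs 3 fell, 1 rose and 6 did not pass the test. LOC100513133 was at 1198, 603, 400, 609 and 343 CPM after doxorubicin, against 1259, 828 and 910 CPM with vehicle. Doxorubicin 1 lay with the vehicle libraries and the other 4 below them, and the log2 fold change of −0.66 (SE 0.38) had an adjusted p of 0.220. Without doxorubicin 1 it was −1.03 with an adjusted p of 0.0304, but leaving out the library nearest to vehicle favours a larger fall. FRMD8, 11256 bases away on the same strand, rose by 0.91 (SE 0.18, adjusted p = 0.0104). LOC102163816 (chromosome 2, 6749941 to 6794116, plus strand) lies 9474 bases from LOC100513133 on the other strand. It had 107, 119, 138, 148 and 112 CPM after doxorubicin and 303, 120 and 116 CPM with vehicle, so that vehicle 1 alone was high. Its log2 fold change of −0.52 (SE 0.31, adjusted p = 0.227) became 0.08 without vehicle 1.

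LOC110257452 (chromosome 17, 39322205 to 39327343, minus strand), the next in abundance after LOC100513133, fell. It had 221, 193, 180, 175 and 213 CPM after doxorubicin and 329, 273 and 254 CPM with vehicle. The log2 fold change was −0.54 (SE 0.17, adjusted p = 0.0403), and with library size only it was −0.19 (adjusted p = 0.403). Its call was also lost without any 1 of the vehicle libraries or of doxorubicin 2, 3 and 4, with adjusted p of up to 0.166. LOC100512560 (chromosome 13, 133969419 to 133970560, minus strand), the highest per kilobase, had 89.1, 75.3, 63.3, 69.2 and 78.1 CPM after doxorubicin and 108, 147 and 133 CPM with vehicle. Its log2 fold change was −0.79 (SE 0.16, adjusted p = 0.0119). The call was lost without vehicle 3 (adjusted p = 0.0599) and with library size only (log2 fold change −0.44, adjusted p = 0.0532). TFRC, the transferrin receptor that brings iron into cells, lies 6205 bases away and showed a log2 change of 0.12 (SE 0.36, adjusted p = 0.832).

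LOC100624113 (chromosome 7, 23933356 to 23935759, plus strand) lies within the span of HSPA1L, a heat shock protein gene, on the opposite strand. It had 98.7, 86.3, 63.0, 102 and 164 CPM after doxorubicin and 126, 151 and 159 CPM with vehicle (log2 fold change −0.50, SE 0.27, adjusted p = 0.188). Doxorubicin 5 was above all vehicle libraries and the other 4 were below them. Without doxorubicin 5 the value was −0.73 with an adjusted p of 0.0140, but leaving out the highest library favours a larger fall. LOC110260190 (chromosome 1, 39300049 to 39356285, minus strand) lies within TRDN, the gene of triadin, which anchors the calcium store protein at the calcium release channel of heart muscle. The lncRNA was at 57.6 ± 7.38 CPM after doxorubicin and 64.7 ± 13.4 CPM with vehicle (log2 fold change −0.17, SE 0.17, adjusted p = 0.487). TRDN fell to 61.8 ± 12.6 CPM after doxorubicin, against 107 ± 15.6 CPM with vehicle (log2 fold change −0.79, SE 0.19, adjusted p = 0.0183). LOC106504299 and LOC110255190 had log2 fold changes of −0.40 (adjusted p = 0.245) and −0.49 (adjusted p = 0.118). VANGL1, a planar cell polarity gene that LOC110255190 overlaps by 683 bases on the opposite strand, rose by 0.80 (SE 0.20, adjusted p = 0.0193).

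Setting each lncRNA beside its overlapping or nearest protein-coding gene gave the values of each pair side by side. The partner could be tested for 138 of the 153, and the fold changes had the same sign in 80 of these, where 89 of the lncRNAs and 73 of the partners had a negative value. By position the same sign was found in 31 of 53 opposite-strand overlaps, 26 of 39 pairs within 5 kb, 20 of 42 pairs farther apart and 13 of 21 head-to-head pairs. Among 36 called lncRNAs with a tested partner, the partner was called in the same direction in 11, called in the opposite direction in 1, and not called in 24. The partner was lower for 11 of 31 lower lncRNAs (35.5%), against 12.3% over all 138 pairs and 11.3% of all genes tested, and for 6 of 102 lncRNAs without a call (5.88%). This difference was not tested. Among the 11 are LOC110260391, LOC100511157, LOC110257178 and LOC110259691, which reached 5 CPM with vehicle only, so the share is a description. Lower calls were made for 13 of 58 lncRNAs on the opposite strand of a gene, 8 of 40 within 5 kb and 13 of 49 farther away. Over all 153 lncRNAs the share was 22.9%, and over all genes tested 11.3%. The medians of the lncRNAs and of their partners were −0.38 and −0.15 in the opposite-strand class, −0.04 and −0.06 within 5 kb, and −0.54 and 0.06 farther away.

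All 11 same-direction pairs were lower in both members, with 10 different partners, since LMO4 is the nearest gene to both LOC110260390 and LOC110260391. Besides those already described, the pairs were LOC106507710 with NFKBIA, the inhibitor that holds NF-kB in the cytoplasm, LOC110257855 with CHIC1, LOC106506644 with SDCBP2, and LOC110259691 with CAST, the inhibitor of the protease calpain. These 4 were singled out after their values were seen. LOC106507710, 90 bases from NFKBIA, had 16.6, 6.62, 9.39, 9.23 and 9.75 CPM after doxorubicin and 23.6, 28.9 and 25.2 CPM with vehicle (log2 fold change −1.33, SE 0.26, adjusted p = 0.0104), and NFKBIA had −1.03 (adjusted p = 0.0230). Some of the partner calls depended on 1 library or on the scale. Those of KPNA1, CHRM2, LMO4, TRDN and VANGL1 were lost without any 1 vehicle library (adjusted p of up to 0.133). That of FRMD8 was lost without vehicle 1 or vehicle 3 (up to 0.0579) and that of LRP1B without vehicle 1 (0.0630). With library size only, KPNA1 (0.189), CHRM2 (0.162), LMO4 (0.108) and TRDN (0.0991) also lost their calls. KPNA1 lost its call without doxorubicin 1 or 3 too, CHRM2 without doxorubicin 1 or 4 and LMO4 without doxorubicin 2 or 3. The calls of P2RY1, DAPL1 and UBE2D3 held under all the alternatives. Other partners of named lncRNAs that did not pass had log2 fold changes of −0.76 for CNBD2 (beside LOC110257452, adjusted p = 0.157), −0.30 for HSPA1L (0.650), 0.63 for NQO2 (beside LOC106504299, 0.0930), 0.06 for GPR85 (beside LOC100519283, 0.961), 0.74 for LOC110257391 (beside LOC100627949, 0.130), −0.66 for FAH (beside LOC102157546, 0.103) and 2.27 for MYO16 (beside LOC110255857, 0.0722). SLC13A4, RTP5, NXPE2 and LOC110256380 were too low to be tested.

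**Figure D4:**
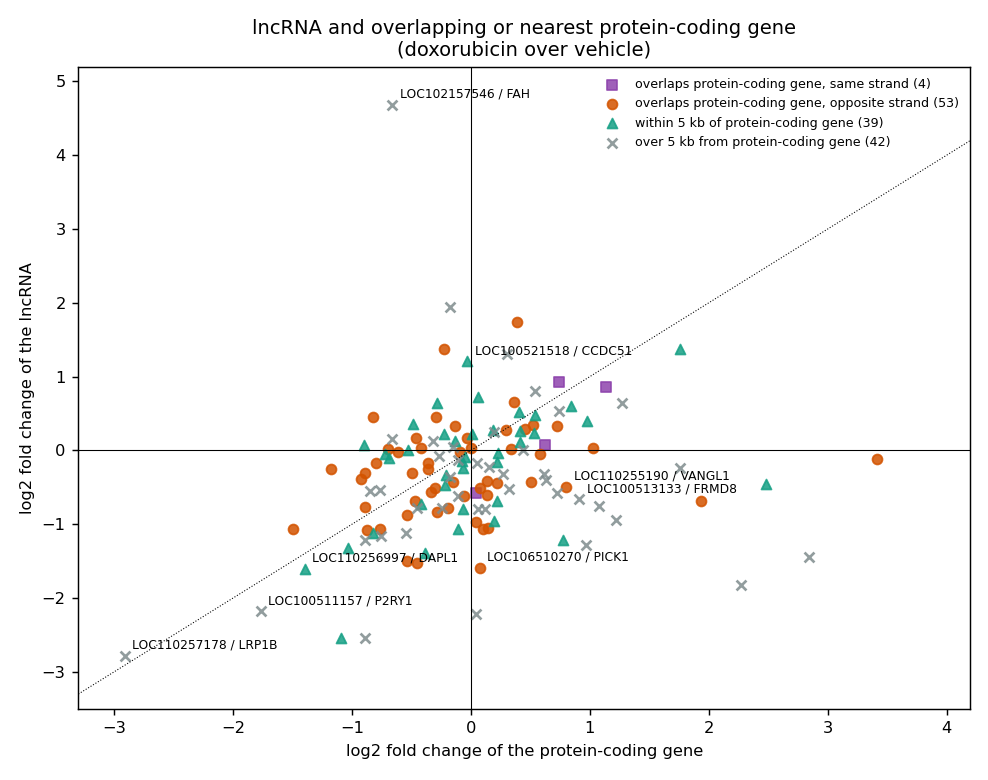
Log2 fold change, doxorubicin over vehicle, of each lncRNA (y axis) against that of its overlapping or nearest protein-coding gene (x axis) for the 138 pairs with a tested partner, marked by position; the dotted line marks equal values. LOC110257178, LOC100511157 and LOC110256997 lie near the line with LRP1B, P2RY1 and DAPL1, while LOC106510270 is at −1.59 with PICK1 at 0.08. LOC110257178 and LOC100511157 reached 5 CPM with vehicle only.

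For the named lncRNAs the log2 ratio of lncRNA to partner was compared between groups in 29 pairs, by a two-sided exact permutation test on CPM + 0.5. The ratio did not overlap between groups in 11 pairs, at the smallest p that 5 against 3 libraries allow (0.0357), but the smallest adjusted p was 0.0942 and 0 of 29 passed. These 11 included LOC106510270 with PICK1 (difference −1.71), LOC100513133 with FRMD8 (−1.65), LOC110260391 with LMO4 (−1.49), LOC110255190 with VANGL1 (−1.27), LOC100521518 with CCDC51 (1.19), LOC106508141 with FARP2 (1.18) and LOC110260190 with TRDN (0.65). For LOC100621475 with CHRM2 the difference was −0.12, and for LOC110256997 with DAPL1 it was −0.21, with overlapping groups. This design could not bring any single pair past the adjusted threshold unless many more pairs reached the smallest p. Many of these lncRNAs were named for a small p in the same contrast, and the ratio was not compared for the other pairs. The 11 of 29 is therefore a description only. Among the 11, LOC110260391 reached 5 CPM with vehicle only, and LOC106508141 and LOC102157546 after doxorubicin only.

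The lncRNAs also varied more among doxorubicin libraries than among vehicle libraries. The median coefficient of variation was 32.4% after doxorubicin and 14.7% with vehicle, and 130 of the 153 had the larger value after doxorubicin. Protein-coding genes of 5 to 38.6 CPM had medians of 21.5% after doxorubicin and 14.7% with vehicle. The highest doxorubicin library was over 5 times the lowest for 20 lncRNAs. Neither this count nor the 130 was made over all genes tested. The 27 lncRNAs that reached 5 CPM after doxorubicin only were chosen through these same values, so the spread is a description. Doxorubicin 5 was the lowest of its group for 57 lncRNAs and the highest for 41, and doxorubicin 1 was the highest for 48 and the lowest for 18. Relative to the vehicle mean, the median lncRNA was at −0.21, −0.32, −0.49, −0.38 and −0.68 on the log2 scale in doxorubicin 1 to 5.

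The 5 lncRNAs with the widest range were LOC110257075, LOC102157546, LOC110255857, LOC110260979 and LOC106504881. LOC102157546 (chromosome 7, 49099838 to 49150374, minus strand) was at 1.20, 2.22, 3.83, 1.40 and 88.7 CPM after doxorubicin and at 0.929, 0.624 and 0.711 CPM with vehicle. All doxorubicin libraries lay above vehicle, but its place among the 153 rests on doxorubicin 5, the library with the highest fibroblast marker sum (31410 CPM). The log2 fold change was 4.68 (SE 1.83, adjusted p = 0.0879), and without doxorubicin 5 it was 1.52 with an adjusted p of 0.0432. LOC106504205, whose locus holds the microRNA gene MIR125B-1, also had its highest level in doxorubicin 5, with 8.08, 6.72, 21.3, 3.27 and 39.4 CPM after doxorubicin and 8.64, 3.61 and 6.83 CPM with vehicle (log2 fold change 1.31, SE 0.75, adjusted p = 0.216).

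LOC110257075 (chromosome 15, 140375429 to 140382252, minus strand) had 3.22, 2.17, 0.0934, 6.95 and 0.550 CPM after doxorubicin and 21.9, 11.9 and 33.5 CPM with vehicle. It had the widest range of the 153 (74.4 times), for which it is named. That range rests on a very low level in doxorubicin 3 (0.0934 CPM), so its size is uncertain. Its log2 fold change was −3.11 (SE 0.86, adjusted p = 0.0304) and its groups did not overlap, but it reached 5 CPM through the vehicle libraries alone. The call was lost without any 1 vehicle library or without doxorubicin 2, with adjusted p of up to 0.110. For LOC110255857 (chromosome 11, 76339174 to 76356202) the levels were 15.3, 2.83, 3.13, 5.65 and 0.300 CPM after doxorubicin and 20.5, 15.3 and 21.9 CPM with vehicle (log2 fold change −1.82, adjusted p = 0.113). For LOC106504881 (chromosome 9, 42097607 to 42151803) they were 10.1, 1.11, 1.12, 2.85 and 0.450 CPM after doxorubicin and 10.4, 11.5 and 8.68 CPM with vehicle (log2 fold change −1.71, adjusted p = 0.135). In both, doxorubicin 1 stood with the vehicle libraries and doxorubicin 5 was lowest. Without doxorubicin 1 the values were −2.69 (adjusted p = 0.0204) and −2.88 (adjusted p = 0.00778). Leaving out the library nearest to vehicle favours a larger fall, so these values are a description. LOC106504881 also reached 5 CPM with vehicle only. LOC110260979 (chromosome 6, 44052952 to 44060764), which lies within the span of the glycolytic gene GPI on the same strand, had 0.800 to 20.8 CPM after doxorubicin and 6.31 to 21.1 CPM with vehicle (log2 fold change −0.58, adjusted p = 0.583).

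**Figure D5:**
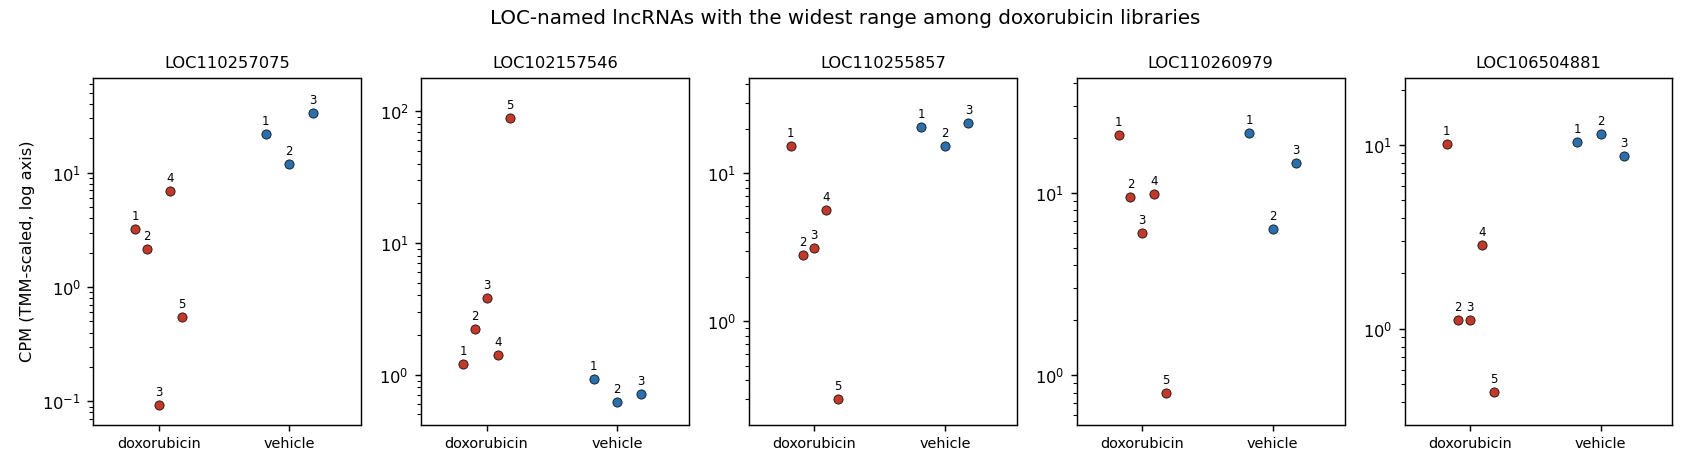
CPM (TMM-scaled, log axis) in each doxorubicin and vehicle library for the 5 lncRNAs with the widest range among doxorubicin libraries; numbers are library numbers. Doxorubicin 5 is at 88.7 CPM for LOC102157546 and is the lowest library of all for LOC110255857, LOC110260979 and LOC106504881, while doxorubicin 1 lies among the vehicle libraries for the last 3.

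A few of the loci hold small RNA genes, which the counts of the lncRNA do not measure. LOC110261182 holds MIR133A-2, a microRNA gene of striated muscle, and had 8.73, 5.30, 2.06, 3.79 and 2.80 CPM after doxorubicin and 10.6, 7.14 and 10.6 CPM with vehicle (log2 fold change −1.06, SE 0.42, adjusted p = 0.0886). LOC102165633 on the X chromosome holds MIR421, MIR545, MIR374A and MIR374B and showed a log2 change of −0.34 (SE 0.27, adjusted p = 0.373). LOC100514147, described as a small regulatory polypeptide of amino acid response, had 37.2, 24.4, 16.5, 32.8 and 16.9 CPM after doxorubicin and 36.2, 43.5 and 43.1 CPM with vehicle (log2 fold change −0.68, SE 0.27, adjusted p = 0.0924). None of the 3 passed the test, and their groups overlapped. They were picked for their annotation, and LOC110261182 reached 5 CPM with vehicle only.

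Within 100 kb of each other lay 9 pairs of these lncRNAs. Only LOC110260390 and LOC110260391 were both called, as described above. LOC100622037 and LOC100627949 lie 13195 bases apart on chromosome 17 and had log2 fold changes of 0.53 and 0.93, of which the second passed. LOC100521518 and LOC102162605 lie 34748 bases apart on chromosome 13, with 1.21 and 0.17. Of these, LOC100627949 and LOC102162605 reached 5 CPM after doxorubicin only. LOC106509607 and LOC106509609, 13897 bases apart on chromosome 2, had values of opposite sign, 0.33 and −0.58, and neither passed.

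At the threshold itself, LOC102160517 (chromosome 8, 118198046 to 118203226, minus strand) had 5.51, 5.46, 3.88, 3.73 and 3.20 CPM after doxorubicin and 6.71, 7 and 5.47 CPM with vehicle. The groups just overlapped, and the log2 fold change was −0.55 (SE 0.25, adjusted p = 0.125). UBE2D3, a ubiquitin-conjugating enzyme gene 14998 bases away on the opposite strand, fell to 69.4 ± 8.65 CPM after doxorubicin, against 125 ± 4.87 CPM with vehicle (log2 fold change −0.85, SE 0.14, adjusted p = 0.00756).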

How the data were processed

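Raw counts for each gene in 8 heart libraries were deposited by the authors as 1 table of whole numbers, whose columns sum to different totals. Column names equal the sample titles. Per the labels' protocols, libraries were made from total RNA with a SMARTER mRNA kit. No aligner, counter or strand setting is given in the sources used here. The deposited gene length, in bases, served for CPM per kb. Gene descriptions and positions came from the deposited table and from the RefSeq table of Sscrofa11.1. No count column lacked a sample.

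The rule's CPM divides counts by the column total; all per-library CPM use TMM-scaled library sizes. Counts were fitted in R 4.3.3 with edgeR 4.0.16: filterByExpr (minimum count 10, minimum total 15) kept 14938 genes, libraries were TMM-scaled (factors of 1.05 to 1.18 for doxorubicin and 0.839 to 0.874 for vehicle), and the robust quasi-likelihood test compared doxorubicin with vehicle. Tests were two-sided, with Benjamini-Hochberg adjustment over all 14938 genes and a threshold of 0.05. SE are on the log2 scale. The ratio of lncRNA to partner was tested by exact permutation in scipy 1.17.1 and was added after the data were seen. Pairs of libraries of a group gave a chi-square of 17.2 to 284 per degree of freedom, so none was taken as a copy.

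The alternatives tried were limma 3.58.1 (voom, quality weights), DESeq2 1.42.0, a block for the replicate number, RLE scaling, plain library sizes, TMM without mitochondrial and the 20 most abundant genes, other filters (none, or CPM over 1 in 3 libraries), and each library left out. For membership, 3 and 10 CPM were tried.

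The members, lists and tests were chosen with earlier results of these data known. The text names LOC100513397, the 10 most abundant lncRNAs, up to 12 per direction with the smallest p among those called, the 5 with the widest range among doxorubicin libraries, those at the threshold, and the protein-coding gene each overlaps or lies nearest to. Exceptions are named as such. Some partner genes are not reported here. Pairs, small RNA hosts and differently described loci were chosen by annotation. No sequences are printed. Figures were drawn with matplotlib 3.10.9.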

Additional observations from a re-analysis of the deposited data

Results flagged for a closer look

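Of 34 values looked at in the 5 doxorubicin libraries, 5 had a library farther from the rest than Dixon's 95% critical value of 0.71, where chance gives about 1 in 20. The tally is not independent of the choice of lncRNAs: 5 of the 34 were named for their wide range in these libraries, and they hold 2 of these 5 values (LOC102157546 and LOC106504881), with 3 among the other 29. LOC102157546 was at 88.7 CPM in doxorubicin 5 and at 1.20 to 3.83 CPM in the other doxorubicin libraries. Doxorubicin 1 was the high library in the other 4. It had 12.2 CPM of LOC100516731, against 6.38 to 7.35 CPM in the other doxorubicin libraries, and 10.1 CPM of LOC106504881, against 0.450 to 2.85 CPM. It had 4.58 CPM of LOC110257178, against 0.701 to 1.76 CPM. The summed share of the 153 lncRNAs was 0.400% of counts in doxorubicin 1 (95% Wilson interval 0.397% to 0.403%, counting error only), against 0.301% to 0.325% in the other doxorubicin libraries. LOC100513133 held 31.5% of the lncRNA counts in doxorubicin 1, and without it the summed share was 0.274% there, within the 0.254% to 0.277% of its group. For LOC100516731, LOC106504881 and LOC110257178 the level in doxorubicin 1 was the nearest of its group to the vehicle level.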

How the results depend on the processing

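Counts of calls moved with limma voom, with the scale and with the vehicle libraries. With library size only, 4093 genes were higher and 499 lower, of which 13 and 18 were among the lncRNAs, and the medians were 0.38 over all genes and 0.028 over the lncRNAs. With limma voom, 4053 genes were higher and 4034 lower, 17 and 69 among the lncRNAs, with a median of −0.0024 over all genes. DESeq2 gave 11 higher lncRNAs, and with no filter the median of all genes was 0.21. Leaving out 1 library at a time gave 334 to 2472 higher and 315 to 2265 lower genes, 0 to 8 higher and 14 to 42 lower lncRNAs, a median of 0.014 to 0.046 over all genes and of −0.36 to −0.28 over the lncRNAs. The lowest counts were without vehicle 1 or vehicle 3. The share of counts outside mitochondrial DNA was 0.383% after doxorubicin and 0.488% with vehicle. The rule gave 75 lncRNAs at 10 CPM and 227 at 3 CPM, 156 on TMM-scaled sizes, and 148 to 155 without 1 library.

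The 3 correlations between libraries with the same replicate number were 0.0425, 0.00205 and −0.00312, and the other pairs ran from −0.12 to 0.13. Such values cannot settle whether samples were paired, and the labels do not state it. With the replicate number as a block, 42 lncRNAs were lower and 8 higher, and 1602 and 2036 of all genes.

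For the 33 named lncRNAs and 29 tested partners, 865 of 986 alternative values kept direction and side of the threshold, 69 were no longer past it, 32 were newly past it and 20 changed sign; none of those 20 had been called. With library size only, LOC110260190 was at 0.19, HSPA1L at 0.040, CCDC51 at 0.32 and FBXL7 at 0.060. With the replicate block, TFRC was at −0.013, GPR85 at −0.20 and GPI at −0.065, and with limma voom GPR85 was at −0.036. Without 1 library, LOC102163816 ranged from −0.76 to 0.078 (without vehicle 1), LOC110260190 from −0.27 to 0.012 (without vehicle 2), HSPA1L from −0.62 to 0.070 (without vehicle 3), TFRC from −0.20 (without doxorubicin 4) to 0.32, CCDC51 from −0.21 to 0.14 (without vehicle 2), GPR85 from −0.29 (without vehicle 3) to 0.94, PARP4 from −0.16 (without vehicle 2) to 0.25 and PICK1 from −0.064 (without vehicle 3) to 0.24. The cause of these changes was not tested. By level, 20.5% of the lncRNAs from 5 to under 10 CPM were called, and 34.7% of those at 10 CPM or more.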
